A study of Mus musculus with 6 samples.

Results

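Mouse E14 embryonic stem cells (ESCs, a feeder-free line of 129/Ola background) were depleted of TET1 or TET2 by lentiviral short hairpin RNAs, and small RNAs were sequenced to ask whether RNA derived from LINE-1 (L1) retrotransposons differs without these enzymes. The 3 groups were shScr, cells with a non-targeting hairpin, shTet1, cells with a hairpin against Tet1, and shTet2, cells with a hairpin against Tet2, with 2 libraries each and 6 in all. All cells carried a hairpin vector and were selected with puromycin from 24 h after infection, with collection after 3 days of selection. Nothing in the labels says whether the 2 libraries of a group came from separate cultures, so the spread between them, and the p-values that rest on it, may be technical. The reads listed here lie inside L1 copies and do not measure Tet1 or Tet2, so the knockdowns were not checked. The deposited files list reads that lie inside L1 copies, and 2 of these copies are described here. Both belong to the class L1Md_F2, both lie on mouse chromosome 1 (mm9), and both were selected on their read numbers together with a stretch inside them that other L1 copies lack. The regions are the 3865 distinct pairs of read start and end in them, of 71895 in all 13686 copies, and they hold 50919 of the 393511 listed reads.

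L1 elements are retrotransposons that copy themselves through an RNA intermediate, and most copies in the mouse genome are truncated or otherwise inactive. TET1 and TET2 oxidise 5-methylcytosine to 5-hydroxymethylcytosine, a step in DNA demethylation, and in ESCs TET1 is known to bind at young L1 elements. Small RNAs that match an L1 copy can come from the L1 itself, from a host gene transcribed through it, or from any other sequence that resembles a part of it, and an aligner assigns a short read by its letters alone.

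Copy limits are given as the files list them, with a start counted from 0. All other positions count from 1. The first copy is listed from 46127904 to 46134327 on the minus strand (6423 bp). It lies in an intron of Dnahc7b (ENSMUSG00000041144.8, plus strand, 46123583 to 46430395), which encodes a dynein heavy chain, between an exon that ends at 46123849 and one that starts at 46135368. It is called the Dnahc7b copy here and holds 2795 of the regions and 41171 reads. The second copy is listed from 102073552 to 102078935 on the plus strand (5383 bp). It lies in an intron of Cntnap5b (ENSMUSG00000067028.4, plus strand, 101669342 to 102382519), which encodes a contactin-associated protein, between an exon that ends at 102060816 and one that starts at 102110244. It is called the Cntnap5b copy and holds 1070 of the regions and 9748 reads. Dyneins of this family are motors of cilia and flagella, and proteins of the contactin-associated family are neuronal surface molecules. No annotated exon (GENCODE) touches either copy.

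Each copy is interrupted by a stretch that hardly any other L1 copy carries. Marking every 15-nt word found in fewer than 5 other L1 copies of the files gave a run of 254 bp in the Dnahc7b copy (46132772 to 46133025, 46.9% G or C) that begins 1302 bp from the 5′ end of the L1. For the Cntnap5b copy the run was 344 bp (102076669 to 102077012, 45.6% G or C) and begins 3116 bp from the 5′ end. A word outside these runs was found in a median of 866 other copies for the Dnahc7b copy and 200 for the Cntnap5b copy, against a median of 0 inside both runs. All but 2 reads of each copy touched its insert, so the reads describe the inserts and not the L1 sequence around them. The inserts did not match each other, with 0 alignments by blastn at an E value of 0.001.

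The central read windows of both copies are printed below in the direction of the reads, which is the minus strand of the genome. They show what the reads can be made of, with the most frequent fragment of each copy in capitals. The first spans 46132787 to 46133027 (241 nt) and the second 102076673 to 102076933 (261 nt), and positions below count from 1 at the 5′ end of each window in read direction.
Dnahc7b copy window: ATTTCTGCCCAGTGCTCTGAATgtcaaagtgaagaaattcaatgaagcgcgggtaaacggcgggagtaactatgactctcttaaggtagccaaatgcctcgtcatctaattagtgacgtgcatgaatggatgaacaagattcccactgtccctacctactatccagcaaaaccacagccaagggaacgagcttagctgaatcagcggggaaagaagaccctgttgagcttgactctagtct
Cntnap5b copy window: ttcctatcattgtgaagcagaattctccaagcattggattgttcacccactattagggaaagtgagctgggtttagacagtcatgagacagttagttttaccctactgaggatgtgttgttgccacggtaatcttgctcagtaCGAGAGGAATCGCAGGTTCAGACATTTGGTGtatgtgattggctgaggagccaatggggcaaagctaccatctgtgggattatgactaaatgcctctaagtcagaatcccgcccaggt

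Reads came almost entirely from one genomic strand in both copies. Of 50919 reads, 3 were on the plus strand, 2 in the Dnahc7b copy and 1 in the Cntnap5b copy. They were a read of 33 nt in replicate 1 of shTet2 (46132622 to 46132654), one of 29 nt in replicate 2 of shScr (46128548 to 46128576) and one of 32 nt in replicate 1 of shTet2 (102074434 to 102074465), and none of them lay in a read window. Minus-strand reads run antisense to both host genes, sense to the L1 in the Dnahc7b copy and antisense to the L1 in the Cntnap5b copy. The antisense share against the L1 was therefore between 0% and 0.0104% per library in the Dnahc7b copy and between 99.95% and 100% in the Cntnap5b copy. In the shallowest library, replicate 1 of shTet1, 0 of 1023 and 0 of 321 reads were on the plus strand, which allows shares of up to 0.293% and 0.935% when a count of 0 is read as at most 3 reads. No difference in strand between the knockdowns and shScr was detectable at this depth. With 3 plus-strand reads in all, the 4 exact permutation tests (p = 1 in each) could not show one and carry no information on strand.

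Both inserts have relatives elsewhere in mm9. With blastn at an E value of 1e-5 the Dnahc7b insert matched 29 other places, 18 of them over at least 90% of its length, with identities from 74.2% to 98.7% and a median of 94.2%. The Cntnap5b insert matched 30 other places, 0 of them over at least 90% of its length, with identities from 70.0% to 95.8% and a median of 90.0%. In 3 places, on chromosomes 17, 14 and 9, both inserts matched on the same strand, and there the match of the Dnahc7b insert lay upstream of that of the Cntnap5b insert in read direction, with 438, 452 and 445 bp between them. The Cntnap5b insert matched only in part there. In read direction its matching bases were 7 to 76 on chromosome 17, 227 to 339 on chromosome 14 and 218 to 339 on chromosome 9. The 3 distances thus run to different parts of that insert and do not measure 1 common spacing. The hairpin of Mir6240, a gene annotated as a microRNA, shares a run of 19 nt with the beginning of the Dnahc7b insert. Outside the marked insert the run goes on, as the letters just before it in the hairpin are those that begin the window. The hairpin is shown with the run inside the insert in capitals, as RefSeq (GRCm38.p6) gives it.
Mir6240 hairpin: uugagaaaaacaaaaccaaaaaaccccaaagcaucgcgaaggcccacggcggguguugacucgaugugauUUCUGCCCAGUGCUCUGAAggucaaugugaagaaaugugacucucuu

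How many of the reads could have come from these copies was examined by searching each read without mismatch on both strands of mm9. Of the 41158 reads searched in the Dnahc7b copy 80.9% matched the copy and other places, with a median of 9 places, 0.714% matched only the copy, and 18.4% matched no place in the genome exactly. Of the 9746 in the Cntnap5b copy 44.8% matched the copy and other places, with a median of 6 places, 4.83% matched only the copy, and 50.4% matched no place exactly. The share without an exact match ran from 13.9% to 20.3% over the 6 libraries in the Dnahc7b copy and from 43.7% to 56.3% in the Cntnap5b copy, so the ranges did not overlap. The authors' aligner picked 1 place by chance for a read that fits several equally well. The numbers below are those of reads assigned to a copy, and they cannot be told apart from reads of the other matching places.

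A single position carried most of the mismatches in the Cntnap5b copy. At window position 153 (chromosome 1, 102076781) genome and reads differed as T153C. Of the 3601 reads that cover it 98.9% did not carry the base of the genome, and 97.5% carried the base that the token names for the reads. The first of these shares was between 97.8% and 99.6% in every library, with at least 134 covering reads in each. A second position, A181C, differed in 73.7% of 873 covering reads, from 45.5% in replicate 1 of shTet1, where 11 reads covered it, to 81.4% in replicate 2 of shTet1. Of 157 positions covered by at least 100 reads these were the 2 at which 1 other base was in the majority, and in the Dnahc7b copy there were 0 of 209. The median share of differing reads per position was 0.335% in the Cntnap5b copy and 0.481% in the Dnahc7b copy. Of the other places that blastn aligned across position 153, 4 of 7 carried the base of the reads and 2 the base of the copy, and across position 181 all 13 carried the base of the reads. As background, the letters around position 153 as the reads carry them are those of the sarcin-ricin loop, a conserved part of the large-subunit ribosomal RNA. The letters of the Dnahc7b window also read like that RNA. No ribosomal RNA sequence was compared here, and its part in these reads was not tested.

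**Figure D1:**
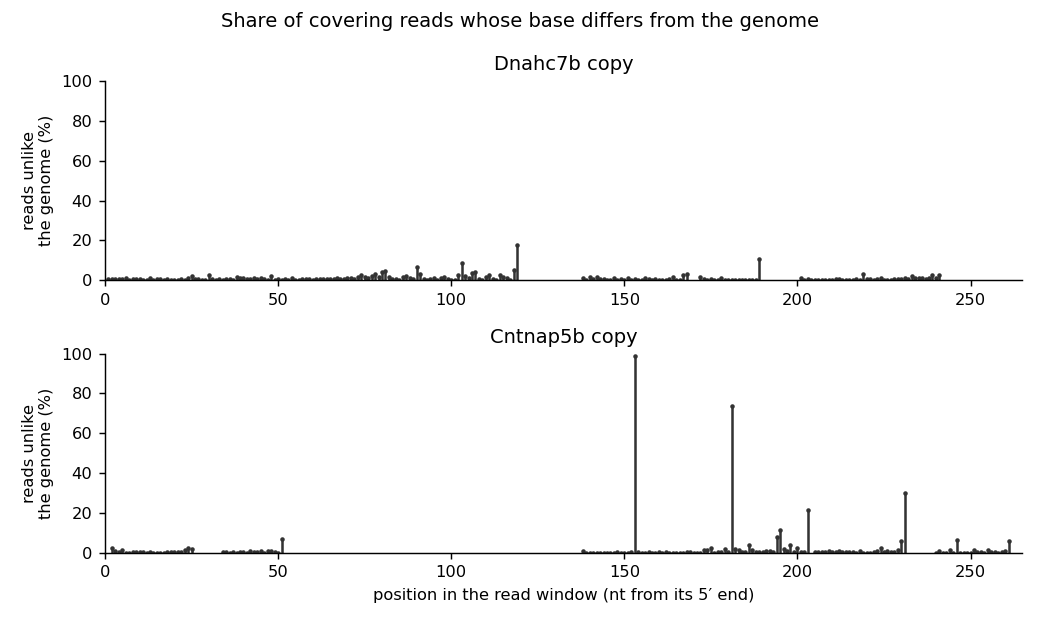
Share of covering reads whose base differs from mm9 (y axis, %) at each position of the read window (x axis, nt from its 5′ end) that at least 100 reads of the 6 libraries cover. The Cntnap5b copy stands at 98.9% at position 153 and 73.7% at position 181, and no position of the Dnahc7b copy reaches 20%.

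Reads that cover position 153 were longer than the others of the Cntnap5b copy. They made up 37.0% of its reads, from 28.9% to 44.2% per library, and had a mean length of 31.0 nt against 20.8 nt. A longer read is more likely to cover any given position, and no other position was compared. The lengths thus show nothing particular to position 153. Of the reads that cover it 0.833% matched the copy without mismatch, against 78.3% of those that do not. The first of these shares restates that 98.9% of the covering reads differ there. In the Dnahc7b copy 82.0% ± 2.20 of reads matched without mismatch, and in the Cntnap5b copy 48.2% ± 4.40 (SD, n = 6 libraries). The Dnahc7b copy was higher in 6 of 6 libraries, by 33.7 percentage points on average (exact two-sided sign-flip test, p = 0.0312, the smallest that 6 libraries can give, adjusted p = 0.0391 over 25 such comparisons, which were chosen after the values were seen).

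The leading fragments show how the ends lie. In the Dnahc7b copy the 5 regions with the highest mean share have only 2 starts between them, and all 5 lie within the first 30 nt of the window.
Dnahc7b copy 1 to 22: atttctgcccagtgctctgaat
Dnahc7b copy 1 to 30: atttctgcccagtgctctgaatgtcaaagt
Dnahc7b copy 4 to 25: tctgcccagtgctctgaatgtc
Dnahc7b copy 4 to 30: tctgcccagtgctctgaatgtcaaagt
Dnahc7b copy 1 to 25: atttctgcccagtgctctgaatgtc

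The fragment of 22 nt (1 to 22) was read 502 and 601 times in the shScr libraries, 28 and 88 times in shTet1, and 544 and 114 times in shTet2. It was 3.70% and 4.88% of the copy's reads in shScr, against 2.74% and 4.74% in shTet1, and 5.68% and 4.02% in shTet2, and the 3 groups overlapped. Of its 1877 reads, 1678 had exactly the letters shown, which occur at 8 places in mm9. The other 4 fragments had 935, 780, 618 and 731 reads. The 5 together made up from 10.8% to 14.2% of the reads of the copy in each library.

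For the Cntnap5b copy the leading fragment is printed in both forms, as the genome and as the reads have it, with the differing base in capitals.
Cntnap5b copy 144 to 174, genome: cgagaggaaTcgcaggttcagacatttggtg
Cntnap5b copy 144 to 174, reads: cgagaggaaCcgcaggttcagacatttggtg
Cntnap5b copy 155 to 172: gcaggttcagacatttgg
Cntnap5b copy 155 to 174: gcaggttcagacatttggtg
Cntnap5b copy 207 to 224: gctaccatctgtgggatt
Cntnap5b copy 213 to 230: atctgtgggattatgact

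The fragment of 31 nt was read 154 and 91 times in the shScr libraries, 16 and 21 times in shTet1, and 75 and 50 times in shTet2. All 407 of its reads carried the letters shown for the reads, which occur at 0 places of mm9. It was 5.51% and 2.94% of the copy's reads in shScr, against 4.98% and 4.11% in shTet1, and 3.39% and 6.20% in shTet2, and the groups overlapped. The fragment from 155 to 174 was 4.93% and 5.46% in shScr, against 1.56% and 2.54% in shTet1 and 1.90% and 1.99% in shTet2. All 4 knockdown libraries thus lay below shScr, with 5 reads in replicate 1 of shTet1. This fragment was singled out after its values were seen. The fragment from 155 to 172 overlapped, as its 4.36% in replicate 1 of shTet1 lay between both shScr libraries. Its shares of 2.15% in replicate 2 of shTet1 and of 2.17% and 2.23% in shTet2 lay below shScr. The fragments of 18 nt (155 to 172, 351 reads) and 20 nt (155 to 174, 383 reads) begin 2 nt downstream of position 153 and so lack the differing base. The last pair, with 229 and 180 reads, overlap each other by 12 nt further downstream. The 5 made up from 10.8% to 18.8% of the copy's reads per library.

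Few of the regions were common. In the Dnahc7b copy 179 of 2795 regions occurred in all 6 libraries and held 53.2% of the reads, while 786 regions were single reads. Of the 1070 of the Cntnap5b copy 78 occurred in all 6 libraries and held 51.5% of the reads, while 466 were single reads. Reads per region ran from 2.14 to 7.42 over the libraries in the Dnahc7b copy and from 1.88 to 5.27 in the Cntnap5b copy, both lowest in replicate 1 of shTet1, the shallowest library, and both highest in shScr. In the other L1 copies, without a chromosome 13 copy that holds most listed reads, they ran from 1.06 to 1.34. Values below that count each region 1 time per library therefore depend on depth.

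A preferred end is the position with the highest mean share over the 6 libraries. The Dnahc7b copy had a stable 5′ end and a variable 3′ end. Its preferred 5′ end was window position 1 (46133027), 2 bases outside the marked edge of the insert, and it was the most used in 6 of 6 libraries. It took 23.5% and 22.0% of the copy's reads in shScr, against 19.2% and 21.3% in shTet1, and 23.5% and 21.9% in shTet2, so both shTet1 libraries lay below both shScr libraries and shTet2 did not separate. The difference of means was -2.50 percentage points for shTet1 (exact permutation test, two-sided, p = 0.333) and -0.0056 for shTet2 (exact permutation test, p = 1). With each distinct region counted 1 time per library, a count that depends on depth, both differences turned to 3.16 and 1.31. Without replicate 1 of shTet1 the difference for shTet1 was -1.44. With 2 libraries against 2 this test cannot give a p below 0.333, so no single value can pass 0.05. Position 4 was the next in 6 of 6 libraries, with 10.8% to 18.1%, and the 3 most used positions (1, 4 and 12) held from 36.7% to 45.2% of the reads.

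At the 3′ side of the Dnahc7b copy no position held more than 10.2% in any library. The most used were positions 30 (4.28% to 10.2%), 22 (4.59% to 8.71%) and 25 (3.39% to 7.27%). Position 30 led in replicate 1 and replicate 2 of shTet1 and in replicate 2 of shTet2, position 22 in replicate 2 of shScr and replicate 1 of shTet2, and position 74 in replicate 1 of shScr. Position 30 took 5.93% and 7.54% in shScr, against 9.29% and 10.2% in shTet1, and 4.28% and 10.2% in shTet2. The difference was 3.00 percentage points for shTet1, with both libraries above both shScr libraries (exact permutation test, p = 0.333), and 0.48 for shTet2, with overlap (exact permutation test, p = 1). In shScr position 22 took 6.12% and 8.71%, more than position 30 in each library. Position 30 was thus picked through knockdown libraries where it is high, so its difference for shTet1 is no evidence of a change. Position 74 took 7.39% and 6.58% in shScr, against 2.35% and 4.15% in shTet1 and 2.16% and 4.05% in shTet2. The share at position 45 was 4.46% and 5.00% in shScr, against 1.27% and 3.23% in shTet1, and 3.08% and 3.56% in shTet2. Positions 74 and 45 finish reads longer than those at 22, 25 and 30 from the same start, and in both the knockdown libraries lay below shScr. They were singled out after their values were seen and were not tested.

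In the Cntnap5b copy the roles were turned round, with a stable 3′ end and a variable 5′ end. Position 174 (102076760) was the most used 3′ end in 6 of 6 libraries, with 16.9% and 12.5% of the copy's reads in shScr, against 13.7% and 12.3% in shTet1, and 15.7% and 14.3% in shTet2. The groups overlapped, with differences of -1.67 percentage points for shTet1 and 0.28 for shTet2 (exact permutation tests, p = 0.667 and p = 1), and the first turned to 2.81 with each distinct region counted 1 time per library. Positions 172 and 173 were next by mean share, and the 3 together took from 24.1% to 29.6%.

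The preferred 5′ end of the Cntnap5b copy was position 155 (102076779). It took 19.7% and 28.3% of the reads in shScr, against 10.3% and 14.7% in shTet1, and 13.4% and 13.5% in shTet2, so every knockdown library lay below both shScr libraries. The mean was 24.0% ± 6.06 in shScr, 12.5% ± 3.11 in shTet1 and 13.5% ± 0.0813 in shTet2 (SD, n = 2 each). The differences of -11.5 and -10.5 percentage points were larger than the larger SD, and in both exact permutation tests p = 0.333. With each distinct region counted 1 time per library, a count that depends on depth, the differences turned to 1.67 and 1.03 percentage points. Position 155 was outnumbered in replicate 1 of shTet1, where position 144 led with 12.1%, and was level with position 144 at 13.5% in replicate 2 of shTet2. In shScr position 144 took 11.4% and 7.78%, so position 155 led there by more than in any knockdown library. Position 155 was thus picked in part through shScr libraries where it is high, so its differences are no evidence of a change. Position 144 ranged from 7.78% to 13.5%, position 139 from 3.39% to 8.22%, and position 143 from 2.49% to 10.1%. The share at position 143 was highest in replicate 1 of shTet2, where it came before position 144.

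The counting error of these shares is largest in replicate 1 of shTet1. There, 33 of 321 reads of the Cntnap5b copy began at position 155, a share of 10.3% with a 95% Wilson confidence interval of 7.41% to 14.1%, while the intervals in shScr were 18.3% to 21.2% and 26.7% to 29.9%. Only counting error enters these intervals, as amplified copies of a molecule could not be recognised. The intervals of the 2 shScr libraries did not overlap, so these libraries differed by more than the counting error of reads taken as independent molecules.

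**Figure D2:**
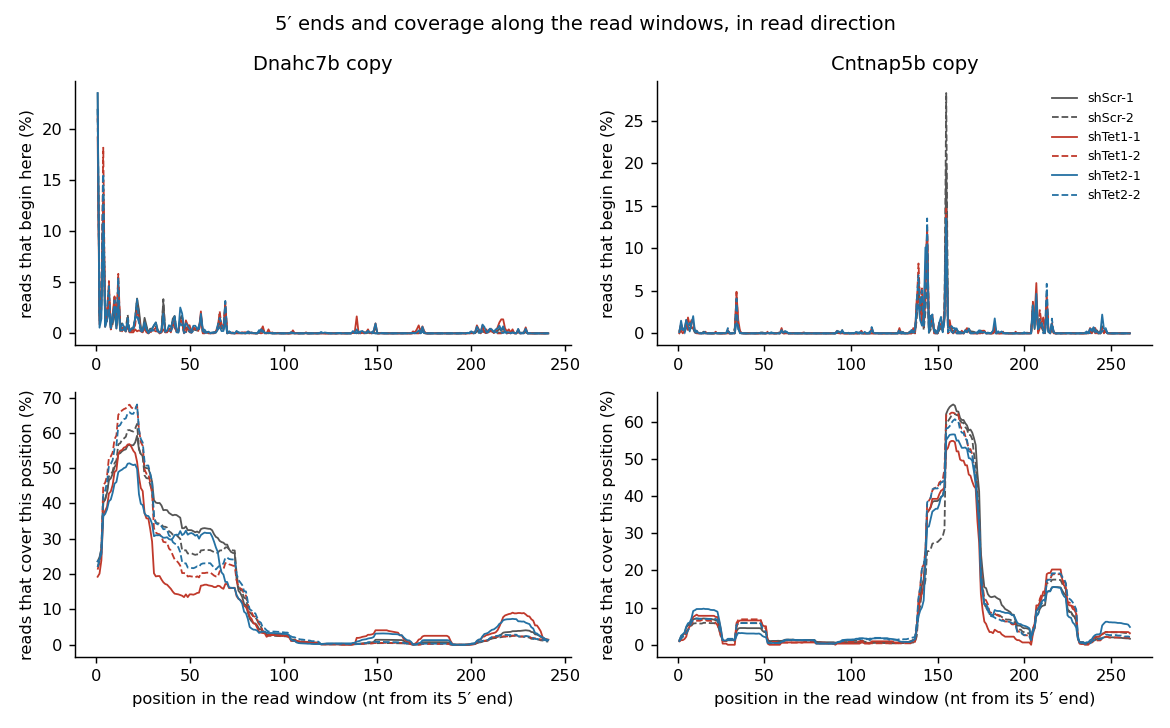
Share of reads that begin at (upper panels) and that cover (lower panels) each position of the read windows (x axis, nt from the 5′ end in read direction), as % of the minus-strand reads of the copy, with 1 line per library. Starts in the Dnahc7b copy crowd at position 1, while those in the Cntnap5b copy crowd at positions 144 and 155, with coverage falling after position 174.

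**Figure D3:**
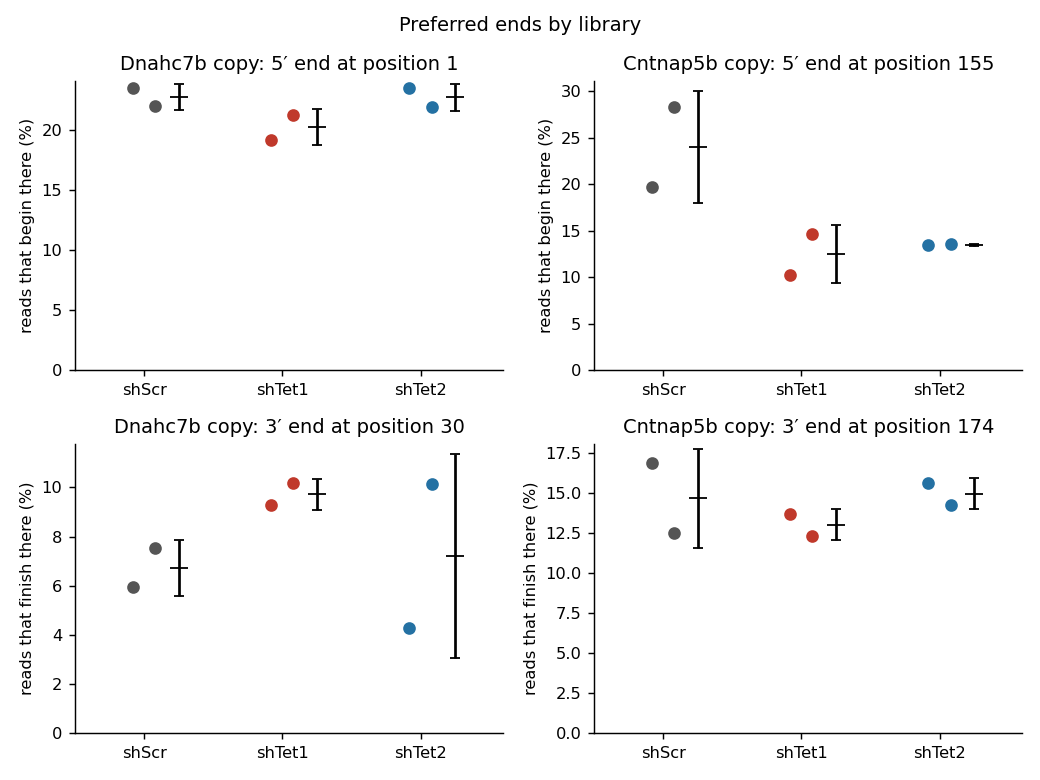
Share of the reads of each copy (y axis, %) that begin or finish at its preferred end, with 1 point per library, the mean as a dash and the SD (n = 2) as a bar. Position 155 of the Cntnap5b copy is lower in all 4 knockdown libraries (10.3% to 14.7%) than in the shScr libraries (19.7% and 28.3%). It was picked in part through those shScr libraries, so this is no evidence of a change.

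Reads that share a 5′ end came in many lengths. The 9349 reads that begin at position 1 of the Dnahc7b copy had 57 different lengths, of which 22 nt was the most frequent with 20.1%, and the 5466 that begin at position 4 had 58, with 22 nt at 14.3%. The 987 reads that begin at position 144 of the Cntnap5b copy had 25 lengths, with 31 nt at 41.2%. The 1941 that begin at position 155 had 28 lengths, with 20 nt at 19.7%. The mean length of reads from position 144 stayed between 29.4 and 30.2 nt over the libraries, and that of reads from position 1 between 28.7 and 33.1 nt.

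Reads cluster at one side of the Dnahc7b window and in the middle of the Cntnap5b window. In the Dnahc7b copy, between 73.8% and 88.0% of the reads began in the first 60 positions. Of the Cntnap5b reads, between 58.6% and 68.7% began in positions 121 to 180 and between 16.9% and 22.7% in positions 181 to 240. Replicate 1 of shTet1 was the lowest library in both of these main blocks.

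Reads of the Dnahc7b copy were longer than those of the Cntnap5b copy in 6 of 6 libraries. Mean lengths in the Dnahc7b copy were 32.7 and 30.6 nt in shScr, against 25.5 and 29.6 nt in shTet1, and 29.4 and 31.1 nt in shTet2. For the Cntnap5b copy they were 25.7 and 23.6 nt in shScr, against 23.2 and 25.5 nt in shTet1, and 24.2 and 25.4 nt in shTet2. Over the 6 libraries the means were 29.8 ± 2.43 and 24.6 ± 1.09 nt (SD), a difference of 5.23 nt (exact two-sided sign-flip test, p = 0.0312, adjusted p = 0.0391 over the 25 comparisons). The reads of the other L1 copies, without those of a chromosome 13 copy that holds most listed reads, had a mean of 28.2 ± 2.80 nt, below the Dnahc7b copy and above the Cntnap5b copy in 6 of 6 libraries (exact sign-flip tests, p = 0.0312 and adjusted p = 0.0391 each). Reads that begin with T, the base most often found first in Piwi-interacting RNAs, were 27.4% ± 3.85 in the Dnahc7b copy, 19.0% ± 1.62 in the Cntnap5b copy and 28.4% ± 2.35 in the other copies. The Cntnap5b copy was below both in 6 of 6 libraries (exact sign-flip tests, p = 0.0312 and adjusted p = 0.0391 each), while the Dnahc7b copy was above the other copies in 3 of 6. The most frequent length was 22 nt in the Dnahc7b copy in every library but replicate 1 of shTet1, where it was 19 nt. It was 18 nt in the Cntnap5b copy in every library but replicate 1 of shTet2, where it was 17 nt.

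Read length in the Dnahc7b copy was shorter in shTet1 than in shScr, by 4.09 nt on average with no overlap (exact permutation test, p = 0.333). The difference was -1.40 nt for shTet2, where the groups overlapped (exact permutation test, p = 0.667). The differences in the Cntnap5b copy were -0.33 nt for shTet1 and 0.13 nt for shTet2, both with overlap (exact permutation tests, p = 0.667 and p = 1). Without replicate 1 of shTet1 the difference for the Dnahc7b copy was -2.04 nt. In that library the listed reads of the other copies were also short, with a mean of 23.9 nt against 29.1 nt in the other shTet1 library and 31.1 and 29.4 nt in shScr. Reads over 40 nt made up 6.74% of its Dnahc7b reads and 6.80% of its reads in other copies, against 27.1% and 20.2% of the Dnahc7b reads in shScr. In the other copies too, both shTet1 libraries had a lower mean length than both shScr libraries. A shorter mean in shTet1 without overlap was thus not particular to the Dnahc7b copy. Whether the shorter reads of the copy reflect replicate 1 of shTet1 as a whole was not tested. All libraries were size-selected on a gel at 120 to 150 bp, adaptors included, so the lengths seen also depend on that cut.

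The share of reads of 18 to 32 nt, the range that holds Dicer products and Piwi-interacting RNAs, was also compared. In the Dnahc7b copy it was 47.9% and 54.8% in shScr, against 65.3% and 59.7% in shTet1, and 55.9% and 55.1% in shTet2, so both knockdowns lay above shScr without overlap, by 11.2 and 4.17 percentage points. The second of these was smaller than the larger SD of 4.92. It was 0.69 without replicate 1 of shScr and 7.65 without replicate 2 of shScr, and with each distinct region counted 1 time it was 1.57 (exact permutation test, p = 1). The first was 7.33 on that count. In the Cntnap5b copy it was 66.4% and 65.9% in shScr, against 70.1% and 61.3% in shTet1, and 60.8% and 61.8% in shTet2, with differences of -0.45 and -4.82 percentage points, the second without overlap. With each distinct region counted 1 time the differences for the Cntnap5b copy turned to 2.30 and 1.46. The exact permutation test gave p = 0.333 for the 3 differences without overlap and p = 1 for the other. In the other L1 copies, without the chromosome 13 copy, the share of 18 to 32 nt was 42.6% and 47.4% in shScr. There it was 54.3% and 49.4% in shTet1, and 53.7% and 45.9% in shTet2. A rise in shTet1 without overlap was thus not particular to the Dnahc7b copy. Reads of 21 to 23 nt, the usual length of microRNAs, were 12.6% to 16.8% of the Dnahc7b reads and 9.43% to 15.9% of the Cntnap5b reads.

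**Figure D4:**
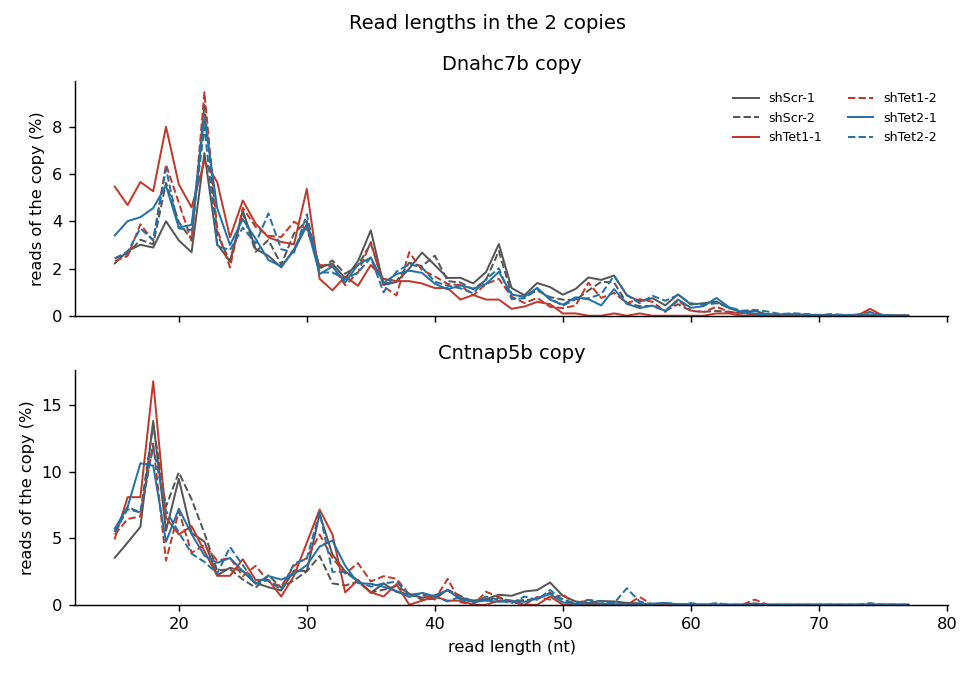
Read length (x axis, nt) against the share of the reads of each copy (y axis, %), with 1 line per library. The Dnahc7b copy has a peak at 22 nt and a tail of reads over 40 nt that is smallest in replicate 1 of shTet1 (6.74%). The Cntnap5b copy has its highest share at 18 nt, or at 17 nt in replicate 1 of shTet2. It has a smaller peak at 31 nt, or at 32 nt in replicate 1 of shTet2.

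The amount of reads in the copies can only be expressed as a share of the listed L1 reads, since totals of the whole libraries are not used here. The files list 125478 and 128715 reads for shScr, 11566 and 23484 for shTet1, and 69360 and 34908 for shTet2. The Dnahc7b copy was read 13559 and 12320 times in the shScr libraries, 1023 and 1857 times in shTet1, and 9575 and 2837 times in shTet2. As shares these were 10.8% and 9.57%, 8.84% and 7.91%, and 13.8% and 8.13%. Both shTet1 libraries lay below both shScr libraries, and the shTet2 libraries lay on either side of them. The Cntnap5b copy was read 2797 and 3098 times in the shScr libraries, 321 and 511 times in shTet1, and 2215 and 806 times in shTet2, or 2.23% and 2.41%, 2.78% and 2.18%, and 3.19% and 2.31%. Here both knockdowns overlapped shScr. In replicate 1 of shTet1 the 95% Wilson intervals of the shares were 8.34% to 9.38% and 2.49% to 3.09%.

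By these shares, averaged over the 6 libraries, the copies follow directly after the first of all L1 copies, with 9.84% and 2.51%. That first was an L1Md_T copy on chromosome 13 with 67.4%, and the next after them, an L1Md_F copy on chromosome 19, had 0.392%. The ranks chose the copies and are a description.

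Neither copy was called as changed. On the scale of listed reads the log2 ratio of the mean share against shScr was -0.28 for the Dnahc7b copy in shTet1 (exact permutation test, p = 0.333) and 0.11 in shTet2 (p = 1 in the exact test). For the Cntnap5b copy it was 0.095 and 0.25 (exact permutation tests, p = 1 and p = 0.667). Without replicate 1 of shTet2 the values for shTet2 were -0.33 and -0.0056, and without replicate 2 they were 0.44 and 0.46. Without replicate 1 of shTet1 the value of the Cntnap5b copy was -0.091. With each distinct region counted 1 time all 4 values were above 0, at 0.65 and 0.55 for the Dnahc7b copy and 0.81 and 0.62 for the Cntnap5b copy in shTet1 and shTet2 (exact permutation tests, p = 0.333 each). A limma voom model took all 92 L1 copies that reached 10 reads in 2 or more libraries. Its log2 fold changes of the Dnahc7b copy were -0.29 (SE 0.32, limma adjusted p = 0.994) for shTet1 and 0.13 (SE 0.26, limma adjusted p = 0.792) for shTet2. Those of the Cntnap5b copy were 0.055 (SE 0.33, limma adjusted p = 0.994) and 0.27 (SE 0.27, limma adjusted p = 0.736). It called 0 of 92 copies (0%) at an adjusted p under 0.05 for shTet1 and 0 for shTet2, and 0 copies had an unadjusted p under 0.05. With TMM factors the fold change of the Dnahc7b copy was -0.62 in shTet1 and turned to -0.36 in shTet2, and that of the Cntnap5b copy turned to -0.24 and -0.20. The negative sign for the Dnahc7b copy in shTet1 was thus kept under this scaling, and the 3 other directions were not. The median log2 fold change of the 92 copies was 0.27 for shTet1 and 0.75 for shTet2, and each of the 4 values from the model without TMM factors lay below it.

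Whether the copies change together was examined by their ratio, which needs no total. The Dnahc7b copy had 4.85 and 3.98 times the reads of the Cntnap5b copy in shScr, against 3.19 and 3.63 times in shTet1, and 4.32 and 3.52 times in shTet2. The means were 4.41 ± 0.616, 3.41 ± 0.316 and 3.92 ± 0.568 (SD, n = 2 each). Both shTet1 libraries lay below both shScr libraries, with a log2 ratio of means of -0.37 (exact permutation test, p = 0.333), and this difference of 1.00 was larger than the larger SD. With reads of 18 to 32 nt alone it was -0.064 (exact permutation test, p = 1), and with each distinct region counted 1 time -0.16 (exact permutation test, p = 0.333). It lay between -0.51 and -0.22 with 1 library left out, nearest to 0 without replicate 1 of shScr. The shTet2 libraries overlapped shScr, with a log2 ratio of -0.17 (exact permutation test, p = 0.667). Against the mean share in shScr, the log2 share of the 2 copies in replicate 1 of shTet2 was 0.44 and 0.46, and in replicate 2 it was -0.33 and -0.0056. In shTet1 it was -0.20 and 0.26 in replicate 1 and -0.37 and -0.091 in replicate 2. By these shares both copies rose in replicate 1 of shTet2, and they moved in opposite directions in replicate 1 of shTet1. Both fell by unequal amounts in replicate 2 of each knockdown. As shares of the listed reads outside the chromosome 13 copy, the values in replicate 1 of shTet2 were -0.033 and -0.016. On that scale replicate 2 of shTet2 had -0.085 and 0.23, and shTet1 had -0.50 and -0.044 in replicate 1 and -0.19 and 0.083 in replicate 2.

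Across the 6 libraries the shares of the copies had a Pearson correlation of 0.73 (permutation p = 0.0778, adjusted p = 0.156 over both scales) and a Spearman rho of 0.60 (permutation p = 0.242, adjusted p = 0.483). Without the 2 libraries farthest from the median share of the Dnahc7b copy, replicate 1 of shTet2 and replicate 1 of shScr, r was 0.51 over 4 libraries. The chromosome 13 copy took from 57.2% to 73.9% of the listed reads and enters both shares through the total. As shares of the listed reads outside that copy, the Dnahc7b copy had 33.5% and 32.5% in shScr, against 23.3% and 29.0% in shTet1, and 32.3% and 31.1% in shTet2. The Cntnap5b copy had 6.91% and 8.18%, 7.32% and 7.99%, and 7.46% and 8.84%. On this scale r was 0.10 and rho -0.14 (permutation p = 0.822 and p = 0.803, adjusted p = 0.822 and 0.803), and without both shTet1 libraries, which were the farthest, r was -0.89 over 4 libraries. The Dnahc7b copy itself made up from 23.3% to 33.5% of this total, so a rise in it lowers the share of the Cntnap5b copy. The values on this scale therefore cannot show whether the positive relation depended on the chromosome 13 copy.

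**Figure D5:**
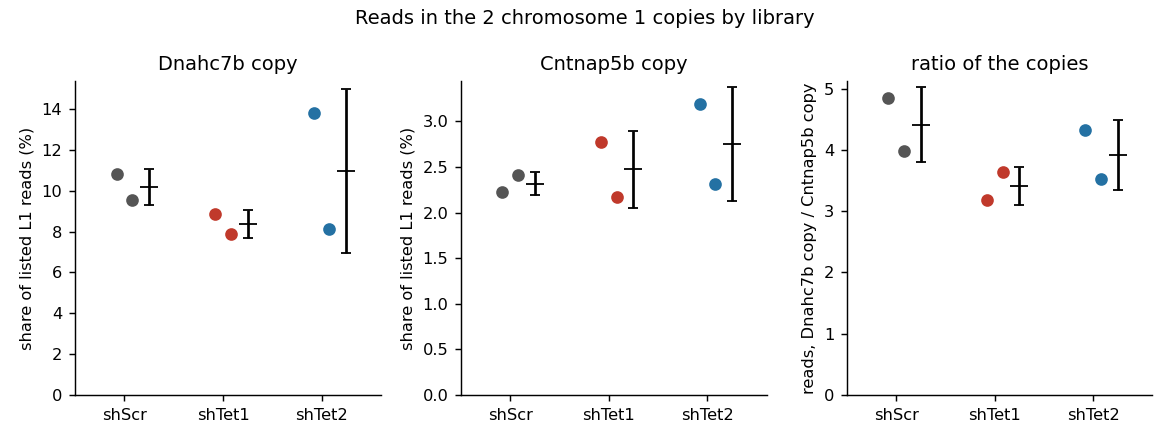
Share of the listed L1 reads (y axis, %) in the Dnahc7b copy and the Cntnap5b copy, and the ratio of their reads, with 1 point per library, the mean as a dash and the SD (n = 2) as a bar. The ratio is 3.98 and 4.85 in shScr and 3.19 and 3.63 in shTet1, while the shTet2 libraries differ widely in share (8.13% and 13.8% in the Dnahc7b copy).

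The regions were also compared one by one. Of the 2795 regions of the Dnahc7b copy 237 reached 10 reads in 2 or more libraries, and of the 1070 of the Cntnap5b copy 50 did. Only the groups with many reads can bring a region past this minimum, so the counts below describe these 287 and not all members. Among all 895 fragments that passed in the L1 copies, limma voom called 0 for shTet1 (0%) and 0 for shTet2 (0%) at an adjusted p under 0.05, and 11 and 38 had an unadjusted p under 0.05. In the copies 7 of 287 and 12 of 287 had an unadjusted p under 0.05, with smallest limma adjusted p of 0.995 and 0.783.

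In shTet1 the fitted log2 fold change was above 0 for 95 and below 0 for 142 of the 237 regions of the Dnahc7b copy, with a median of -0.21. For the Cntnap5b copy it was above 0 for 32 and below 0 for 18 of 50, with a median of 0.25. In shTet2 it was above 0 for 117 and below 0 for 120 in the Dnahc7b copy (median -0.016), and above 0 for 29 and below 0 for 21 in the Cntnap5b copy (median 0.27). The median over all 895 fragments was -0.10 in shTet1 and 0.12 in shTet2. Regions share ends and overlap, so they are not independent of each other.

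A long region passed the test when the fit was limited to shTet1 and shScr. It runs from 46132953 to 46133006 in the Dnahc7b copy, and it was read 110 and 98 times in the shScr libraries, 0 and 6 times in shTet1, and 22 and 15 times in shTet2. In that fit it reached the minimum of 10 reads through the shScr libraries alone, where it was high, so that call is no evidence of a difference. With all 6 libraries its log2 fold change was -2.49 (SE 1.00, limma adjusted p = 0.995). It was named after its values were seen.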

How the data were processed

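Small RNA-seq reads of 6 libraries from mouse E14 ESCs were examined. The labels gave the group and number of each library, and a gel selection of 120 to 150 bp for all. According to the methods and the processing notes, the authors used Trim Galore 0.3.3 with a minimum length of 15 nt, and Bowtie2 2.1.0 against mm9. That aligner chooses by chance among equal places for a read. The deposited files hold 1 read per line with its letters, its position and the L1 copy around it, and no count, score or total. How the L1 copies were chosen is not given in the sources used here. The members and lists were chosen with earlier results of these data known.

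Reads were tallied per copy and per distinct start, end and strand, with listed reads per library (11566 to 128715) as the total. Read letters were compared with NCBIM37 (mm9) and GENCODE annotation by pysam 0.24.0 and BLAST+ 2.17.0. Per-library values were compared by exact two-sided permutation tests (scipy 1.17.1, pandas 2.3.3, Python 3.11.15). A quasi-likelihood test was planned for deposited counts. The files hold none, so limma voom (limma 3.58.1 under R 4.3.3) took the tallies instead, with all 6 libraries in one model, Benjamini-Hochberg adjustment and a minimum of 10 reads in 2 libraries, and the fit was tested on simulated data. Wilson intervals are at 95%. Named fragments are the 5 with the highest mean share in each copy and those called by the main model, of which there were none. The 2 libraries of a group were compared by chi-square tests over fragments, which take reads as independent molecules (p = 7.02e-105, 0.00123 and 6.98e-112 for shScr, shTet1 and shTet2). Since the files differed, each was counted as a sample. The tests do not tell whether the libraries came from 1 culture. The alternatives were other scaling, filters, read lengths, regions counted once, the replicate block and each library left out.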

Additional observations from a re-analysis of the deposited data

How the results depend on the processing

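The exact tests of 2 libraries against 2 have a smallest p of 0.333, so those results are judged by direction. Of the values from leaving out 1 library, 21 of 144 turned direction, and of those from other alternatives 27 of 148 did. Both totals include counts of calls and differences of 0, which cannot turn direction. A further 7 of the 148 became stronger. The cause of the turns was not tested. Values with each distinct region counted 1 time depend on depth, as reads per region do.

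With each distinct region counted 1 time per library, the difference turned to -0.00042 percentage points for the antisense share of the Dnahc7b copy in shTet2, to -1.07 nt for the length of the Cntnap5b copy in shTet2, and to 0.65 (log2) for the share of the Dnahc7b copy in shTet1. The preferred 5′ ends turned to 1.67 and 1.03 percentage points (Cntnap5b copy, shTet1 and shTet2) and to 3.16 and 1.31 (Dnahc7b copy), the preferred 3′ end of the Cntnap5b copy to 2.81 in shTet1, and its share of 18 to 32 nt to 2.30 and 1.46. With reads of 18 to 32 nt alone, the antisense share of the Dnahc7b copy in shTet2 turned to -0.0074 percentage points, the length of the Cntnap5b copy in shTet1 to 0.87 nt, the ratio of the copies in shTet2 to 0.064 (log2), the shares of the Cntnap5b copy to -0.13 and -0.11, that of the Dnahc7b copy in shTet2 to -0.063, and its preferred 3′ end in shTet2 to -0.22 percentage points. Outside the chromosome 13 copy the share of the Dnahc7b copy in shTet2 turned to -0.059.

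In limma voom, TMM factors turned the Cntnap5b copy to -0.24 and -0.20 and the Dnahc7b copy in shTet2 to -0.36, median-of-ratios factors to -0.22, -0.19 and -0.35, and reads of 18 to 32 nt to -0.13, -0.26 and -0.079. Without a filter it called 2548 of 13686 copies in shTet1, neither of the chromosome 1 copies among them, and 67865 and 19109 fragments in shTet1 and shTet2, of which 2334 and 803 lay in these copies. That was 60.4% and 20.8% of the 3865 regions of the copies, against 94.4% and 26.6% of all 71900 fragments. Of those 2334 and 803, 1692 and 595 had at most 2 reads in all 6 libraries. With only the groups compared, 1 fragment was called in shTet1, the long one given above.

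Leaving out 1 library at a time gave a range of -0.0041 to 0.0064 percentage points for the antisense share of the Dnahc7b copy in shTet2. The length of the Cntnap5b copy ran from -1.49 to 0.82 nt in shTet1 and from -0.96 to 1.22 nt in shTet2. The log2 share of the Cntnap5b copy ran from -0.091 to 0.26 in shTet1 and from -0.0056 to 0.46 in shTet2, and that of the Dnahc7b copy from -0.33 to 0.44 in shTet2, and the limma fold changes ran from -0.089 to 0.26, from -0.0043 to 0.46 and from -0.32 to 0.44. The preferred 5′ end of the Dnahc7b copy in shTet2 ran from -0.79 to 0.78 percentage points, its 3′ end from -2.45 to 3.42, the 3′ end of the Cntnap5b copy from -3.86 to 0.53 and from -1.91 to 2.48, and its share of 18 to 32 nt in shTet1 from -4.87 to 3.97. The ratio of the copies in shTet1 kept its sign, from -0.51 to -0.22, as did the preferred 5′ end of the Cntnap5b copy, from -15.8 to -7.22 percentage points in shTet1 and from -14.8 to -6.23 in shTet2. That end was held fixed here and had been picked in part through the shScr libraries.

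A block for the replicate number was also fitted, and no call and no direction changed under it. In limma voom 0 fragments and 0 copies were called, with 56 and 80 fragments at an unadjusted p under 0.05 against 11 and 38. The limma fold change of the Dnahc7b copy was then -0.26 in shTet1. Between libraries of the same number the log2 ratio of the copies differed from shScr by -0.61 and -0.13 in shTet1 and by -0.17 and -0.18 in shTet2, and the smallest p that 2 pairs allow is 0.5. Deviations of same-numbered libraries correlated at 0.28, 0.51 and 0.29 over 71 fragments. With 2 libraries per group this is a hint from the data and not from the design. The depth of the shTet1 libraries, with 321 and 511 reads in the Cntnap5b copy, limits what could be seen there.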
